A study of Caenorhabditis elegans with 2 samples.

Results

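The genes examined were 8 regulators of the G1 phase of the cell cycle, out of 19973 protein-coding genes: the cyclin-dependent kinase (CDK) inhibitor genes cki-1 and cki-2, the cyclin D gene cyd-1 and its kinase gene cdk-4, the retinoblastoma (Rb) family gene lin-35, the E2F and DP factor genes efl-1 and dpl-1, and fzr-1. They were chosen by name, and on the peak signals and IDR ranks of these same data, so the ranks and counts below describe them and were put to no test. For each gene, peaks were collected whose summit lay from 10 kb upstream of its outermost 5′ end to its 3′ end.

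Chromatin immunoprecipitation with sequencing (ChIP-seq) had been done on Caenorhabditis elegans embryos of strain OP740, which carries the transgene wgIs740 (lin-32 fused to TY1, EGFP and 3xFLAG, with the rescue marker unc-119(+)) in an unc-119(tm4063) mutant background. LIN-32 is a proneural transcription factor of the Atonal family, and its tagged form was recovered with an antibody against GFP. The samples, 2 biological replicates that form a single group, were embryos of mixed stage and both sexes, labelled as 3 h old and obtained by bleaching, and the sources used here do not say what drives the transgene. They were whole embryos, so a peak does not show in which cells the protein was bound, and no second genotype or stage was compared. Of the 4 deposited lists, replicate 1 held 30000 entries, replicate 2 held 22601 on the nuclear chromosomes and the pooled list held 26004. The set kept by the irreproducible discovery rate (IDR) procedure held 1042 peaks, all of them entries of the pooled list. The pooled list is labelled as peaks and background for input to IDR. Its −log10 q-values went down to 0.0175, those of replicate 1 to 0.034 and those of replicate 2 to 0.0177. An entry outside the IDR set is thus not by itself a called binding site. Signal values are the authors' and are used only within a list, where rank 1 is the strongest peak. Read depth is unknown from these lists.

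In G1, cyclin D and its kinase phosphorylate the Rb protein, which otherwise sits with E2F and DP factors on genes needed for DNA replication and holds them down. CDK inhibitors of the CIP/KIP family block the kinases, and FZR-1, the worm Cdh1, activates the ubiquitin ligase APC/C that removes cyclins. In C. elegans, cki-1, lin-35 and fzr-1 restrain division, cyd-1 and cdk-4 drive it, and efl-1 and dpl-1 act with lin-35, with dpl-1 also having positive roles. The genes are described here as 4 brakes (cki-1, cki-2, lin-35 and fzr-1), 2 drivers (cyd-1 and cdk-4) and 2 Rb partners (efl-1 and dpl-1). Placing cki-2 among the brakes rests on its being a CDK inhibitor gene.

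All 4 brakes and both drivers, 6 of the 8 genes, had an IDR peak in the window, and neither Rb partner did. The same window held an IDR peak in 11.7% of all protein-coding genes. The 6 genes shared out 9 distinct IDR peaks, 6 at brakes and 3 at drivers, because the peak upstream of cki-1 also falls in the window of its neighbour cki-2. The brake peaks ranked from 23 to 821 of 1042 (median 488.5, median signal 134). The driver peaks ranked 41, 44 and 103, with a median signal of 362 against 129.5 in the whole set. The ranges overlapped, since the strongest of all 9 was a brake peak, at cki-2. The other 5 brake peaks ranked below all 3 driver peaks. Peaks are not separate members of a role: 4 of the 6 brake peaks lie at the cki-1 and cki-2 pair and 2 of the 3 driver peaks in cyd-1. By gene, the best ranks were 23 (cki-2), 203 (cki-1), 439 (lin-35) and 561 (fzr-1), beside 41 (cyd-1) and 44 (cdk-4). With a narrower window, reaching 2000 bp up and 500 bp down from each 5′ end, 5 distinct peaks were left. They were 1 at each brake and 1 at cdk-4, while both cyd-1 peaks fell outside, so the driver side then rested on 1 peak.

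**Figure D1:**
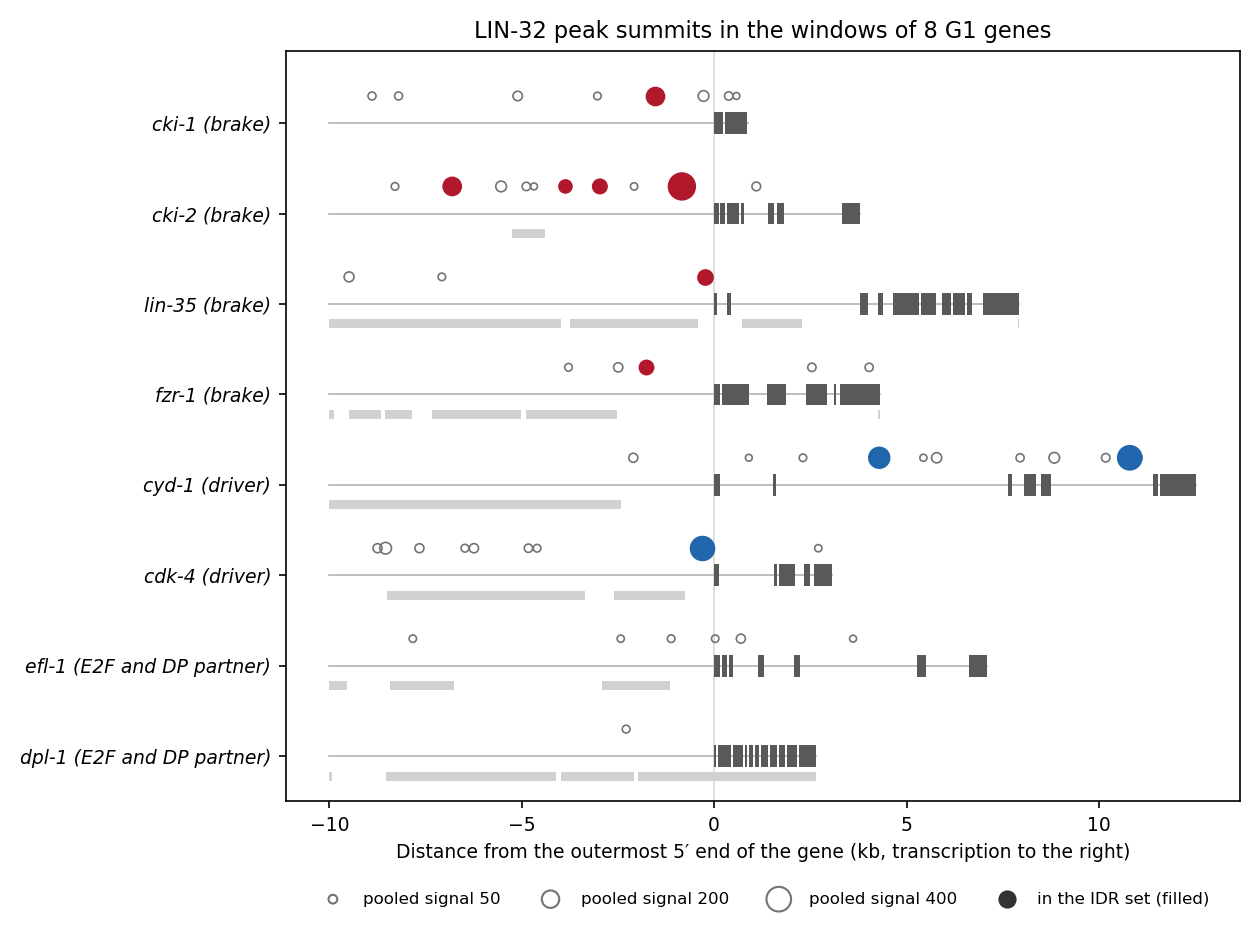
Summits in the pooled peak list around the 8 genes, by distance from the outermost 5′ end (kb); circle area is the pooled signal, filled circles are IDR peaks (red brakes, blue drivers), dark boxes are exons and pale bars are other protein-coding genes. The brake peaks lie upstream, the cyd-1 peaks lie inside the gene, and the efl-1 and dpl-1 rows hold open circles only.

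The sequences at 8 of the 9 summits show the letters that lay under each peak. The sequence not printed is that of lin-35, which held no E-box within 50 bp of its summit. LIN-32-type factors bind E-boxes, the hexamers CANNTG, as dimers with other bHLH proteins. The 101 bases centred on each summit are given 5′ to 3′ on the plus strand of WBcel235, read from the RefSeq copy of that genome, with every CANNTG in capitals.
cki-1, 1547 bp upstream (chrII:7809643-7809743): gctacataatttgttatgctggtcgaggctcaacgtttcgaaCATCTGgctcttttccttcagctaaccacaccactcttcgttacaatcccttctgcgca
cki-2, 3864 bp upstream (chrII:7812585-7812685): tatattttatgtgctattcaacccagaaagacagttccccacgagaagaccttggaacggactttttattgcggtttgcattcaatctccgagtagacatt
cki-2, 2970 bp upstream (chrII:7813479-7813579): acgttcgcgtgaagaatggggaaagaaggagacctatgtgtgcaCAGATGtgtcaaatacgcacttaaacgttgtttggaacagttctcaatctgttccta
cki-2, 839 bp upstream (chrII:7815610-7815710): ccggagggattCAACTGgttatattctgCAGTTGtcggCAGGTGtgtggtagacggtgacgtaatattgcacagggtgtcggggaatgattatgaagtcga
fzr-1, 1778 bp upstream (chrII:9646194-9646294): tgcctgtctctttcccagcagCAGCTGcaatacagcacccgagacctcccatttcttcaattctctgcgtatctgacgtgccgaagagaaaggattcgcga
cyd-1, 4288 bp downstream (chrII:12984829-12984929): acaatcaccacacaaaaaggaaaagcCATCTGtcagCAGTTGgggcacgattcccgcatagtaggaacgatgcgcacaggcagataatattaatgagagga
cyd-1, 10796 bp downstream (chrII:12991337-12991437): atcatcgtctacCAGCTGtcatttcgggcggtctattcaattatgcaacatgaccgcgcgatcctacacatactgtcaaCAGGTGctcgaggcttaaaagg
cdk-4, 306 bp upstream (chrX:13519167-13519267): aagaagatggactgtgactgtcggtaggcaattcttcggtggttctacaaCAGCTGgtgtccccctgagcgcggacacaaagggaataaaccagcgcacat

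An Atonal-type hexamer, CAGATG or CAGCTG on either strand, was found no more than 50 bp from the summit at 6 of the 9 peaks: 3 of 6 at brakes and all 3 at drivers. CAGATG reads CATCTG on the opposite strand, as it does in the cki-1 sequence and the first of the cyd-1 sequences. In the cki-1, cdk-4 and middle cki-2 peaks (2970 bp upstream) the hexamer was centred 5, 3 and 3 bp from the summit. In the fzr-1 peak and the 2 cyd-1 peaks it lay 26, 21 and 35 bp away. Over the whole IDR set 31.3% of such windows held an Atonal-type hexamer, against 9.14% of 24962 pooled summits outside the set and 5.41% of 29299 windows of equal length centred 250 bp upstream of protein-coding 5′ ends. In the same order, 59.5%, 37.8% and 30.9% held any E-box, and the median share of G and C bases was 49.5%, 41.6% and 33.7%. The sets thus differ in base composition too, and its part in the hexamer shares was not tested. The strongest peak, 839 bp upstream of cki-2, held no Atonal-type hexamer. It held CAACTG in 2 copies and CACCTG in 1, and its nearest Atonal-type hexamer lay 63 bp from the summit. The weakest of the 9, 3864 bp upstream of cki-2, held no E-box of any kind, and its nearest Atonal-type hexamer was 891 bp away. A match is a description of the letters and does not show a bound site.

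Most Atonal-type hexamers in the windows lay away from IDR summits. The efl-1 window held 7 Atonal-type hexamers and the dpl-1 window 10. With no IDR peak in either window, none of these could lie at an IDR summit. Among the brakes, 1 of 9 lay at an IDR summit for cki-1, 2 of 20 for cki-2, 0 of 13 for lin-35 and 1 of 9 for fzr-1. The cdk-4 window held 12, of which 1 lay at an IDR summit, and the cyd-1 window 11, of which 2 did. Across the nuclear genome 383 of 66142 such hexamers (0.579%) lay at an IDR summit. The members were chosen on IDR ranks, so the excess of their shares over this one follows from that choice.

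The pair of CDK inhibitor genes held the largest group of peaks. cki-1 (WBGene00000516, chrII:7811240-7812105, plus strand) and cki-2 (WBGene00000517, chrII:7816499-7820281, plus strand) follow each other with 4393 bp between them. A total of 4 IDR summits spanned 5967 bp, 1 upstream of cki-1 and 3 between the genes. All 4 fall in the window of cki-2, and 0.0851% of protein-coding genes (17 genes) had 4 or more IDR peaks in their windows. That count takes in the peak beyond cki-1: with 5 kb of upstream reach, or a window stopped at the nearest coding gene, cki-2 had 3 IDR peaks. It had 2 with the 521 strongest IDR peaks, and 1 with the narrower window or where its own 5′ end had to be the nearest. Stretches of 5967 bp opening at an IDR summit and holding 4 summits occurred 10 times among the 1042 peaks, on 4 chromosomes, and none held more.

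The peak of rank 23 lay 839 bp upstream of the outermost of the 5 annotated 5′ ends of cki-2, in its promoter (here the 1000 bp before and the 200 bp after a 5′ end). Its signal was 455 in the pooled list. Replicate 1 gave 219 at rank 28 and replicate 2 gave 241 at rank 20, each on the scale of its own list. It was thus among the strongest peaks of both replicates, with summits 29 and 50 bp from the pooled one. A non-coding RNA gene, T05A6.19, is annotated across this summit.

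The cki-1 peak lay 1547 bp upstream of the gene, outside its promoter window, between genes. Its signal was 205 at rank 203 in the pooled list, with 124 at rank 144 in replicate 1 and 85.1 at rank 307 in replicate 2. The replicate summits lay 2 and 7 bp from it. The other 2 peaks of the group stood nearer to the 5′ end of cki-1, downstream of it by 1395 and 2289 bp, than to that of cki-2, so that position alone does not assign them to either gene.

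The peak 2970 bp upstream of cki-2 (pooled signal 128, rank 538) was the least alike between replicates. It ranked 325 in replicate 1, with a signal of 82.2, and 1717 in replicate 2, with 40.6. The peak 3864 bp upstream (pooled signal 103, rank 821) ranked 798 in replicate 1 and 995 in replicate 2, with signals of 55.4 and 49.6, and its summit lies in the non-coding RNA gene T05A6.17. Closer to cki-1 than any IDR peak, 277 bp upstream, stood a pooled entry of signal 74.9 at rank 1681, outside the IDR set. Replicate 2 had it at rank 625 (signal 62.1, 5 bp away), while the nearest summit of replicate 1 was 641 bp away.

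**Figure D2:**
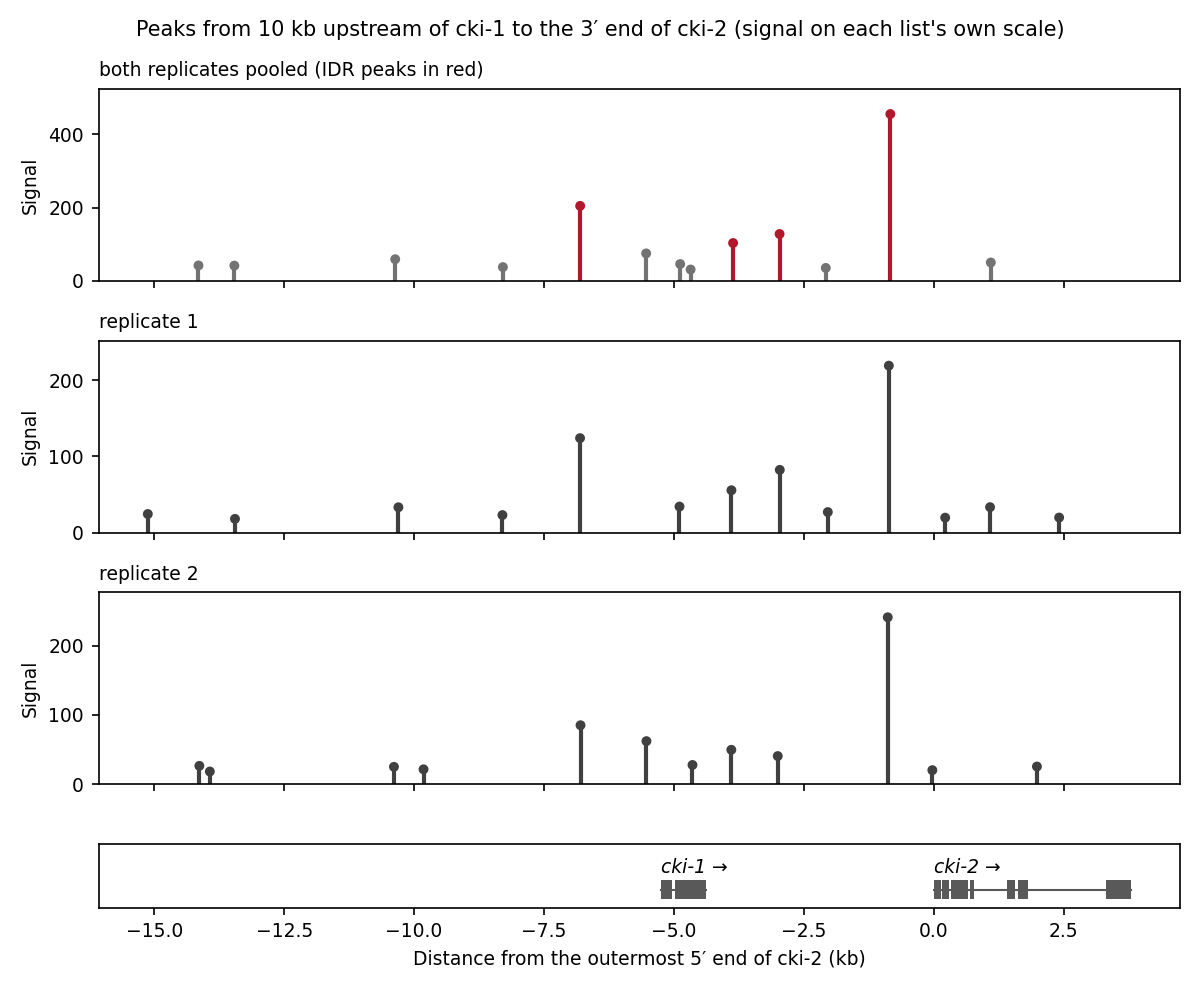
Signal of every listed summit (vertical lines, each list on its own scale) from 10 kb upstream of cki-1 to the 3′ end of cki-2, by distance from the outermost 5′ end of cki-2 (kb), with exons in the bottom panel. The summit 839 bp upstream of cki-2 is the tallest in all 3 lists, and the summit 277 bp upstream of cki-1 appears in replicate 2 and the pooled list but not in replicate 1.

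The remaining brakes each had 1 IDR peak, and both peaks lay between divergent genes. lin-35 (WBGene00003020, chrI:5807709-5815637, plus strand) encodes the worm Rb-family protein. Its peak, of signal 141 and rank 439, stood 231 bp before the start of lin-35 and 187 bp before that of vps-51, a gene on the other strand, with 417 bp between the 2 starts. Replicate 1 had this peak at rank 915 (signal 52.0) and replicate 2 at rank 331 (signal 81.6), with summits 16 and 7 bp away. It was the one peak of the 9 other than the weakest cki-2 peak with no E-box within 50 bp, and its nearest Atonal-type hexamer lay 397 bp away.

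fzr-1 (WBGene00001510, chrII:9640156-9644466, minus strand) encodes the Cdh1-type activator of the APC/C. Its peak lay 1778 bp upstream, with a pooled signal of 126 at rank 561. Replicate 1 had it at rank 562 (signal 63.2) and replicate 2 at rank 775 (signal 55.8). The nearest 5′ end was that of sqv-8, which encodes a glucuronosyltransferase and starts on the other strand, 734 bp from the summit. For both lin-35 and fzr-1 the divergent neighbour is thus the nearer gene, and a peak list does not tell which gene a site serves.

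Both drivers had strong peaks, placed differently. cdk-4 (WBGene00000406, chrX:13515856-13518911, minus strand), the gene of the cyclin D-dependent kinase, had a promoter peak 306 bp upstream of its 5′ end. The pooled signal was 362 at rank 44, with 197 at rank 39 in replicate 1 and 168 at rank 58 in replicate 2. The divergent gene F18H3.1 starts 446 bp on the other side of the summit. The cdk-4 summit lies 7176 bp from the nearest tRNA gene, and none of the other 8 was closer to one.

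cyd-1 (WBGene00000870, chrII:12980591-12993117, plus strand), which encodes cyclin D, was the only one of the 8 genes with IDR peaks inside its transcribed span. Its promoters held none. The stronger peak, of signal 369 and rank 41, lay 10796 bp downstream of the outermost 5′ end, in an intron of 2656 bp shared by both annotated transcripts. Replicate 1 had it at rank 45 (signal 189) and replicate 2 at rank 47 (signal 180). The other, of signal 273 and rank 103, lay 4288 bp downstream, in the 6014 bp intron 2 of the longer transcript and 3344 bp upstream of the start of the shorter one. Replicate 1 had that peak at rank 106 (signal 139) and replicate 2 at rank 111 (signal 133). Ranks of both cyd-1 peaks were nearly equal in the replicates. Having 2 or more IDR peaks in the window was a property of 1.66% of protein-coding genes, and of cki-2 and cyd-1 among the 8, although the cyd-1 window, at 22527 bp, was longer than the median of 12027 bp over all genes.

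The Rb partners efl-1 and dpl-1 had only entries of low signal, none of them in the IDR set. Their best pooled −log10 q-values were 0.295 for efl-1 and 0.0762 for dpl-1, against at least 1.92 in the IDR set. efl-1 (WBGene00001161, chrV:16958590-16965675, minus strand), an E2F-family gene, had a best pooled signal of 53.8, at rank 4973, 693 bp downstream of its 5′ end. Replicate 1 had this entry at rank 4282 (signal 32.3) and replicate 2 at rank 12333 (signal 22.9). The strongest replicate 2 entry in the efl-1 window ranked 3899 (signal 32.0) and lay 17 bp downstream of the 5′ end. dpl-1 (WBGene00001061, chrII:9169910-9172565, plus strand), the DP-family gene, had a single pooled entry in its window, 2288 bp upstream, with a signal of 39.5 at rank 13899. Replicate 1 had it at rank 16391 (signal 21.5) and replicate 2 at rank 18672 (signal 19.7). The strongest replicate 1 entry in the dpl-1 window ranked 5726.

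Set against every protein-coding gene by the best rank in the pooled list, cki-2 stood at a level reached by 0.245% of genes (49 genes), cyd-1 by 0.486% and cdk-4 by 0.531%. cki-1 followed with 2.37%, lin-35 with 5.37% and fzr-1 with 6.83%. For efl-1 the share was 41.5% and for dpl-1 74.2%, so both stood amid the bulk of genes. The median best rank was 5669 over the genes with any pooled entry in the window, and 1998 genes had none. Window lengths differ with gene length, from 10866 bp for cki-1 to the 22527 bp of cyd-1, and a longer window has more room for a peak.

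**Figure D3:**
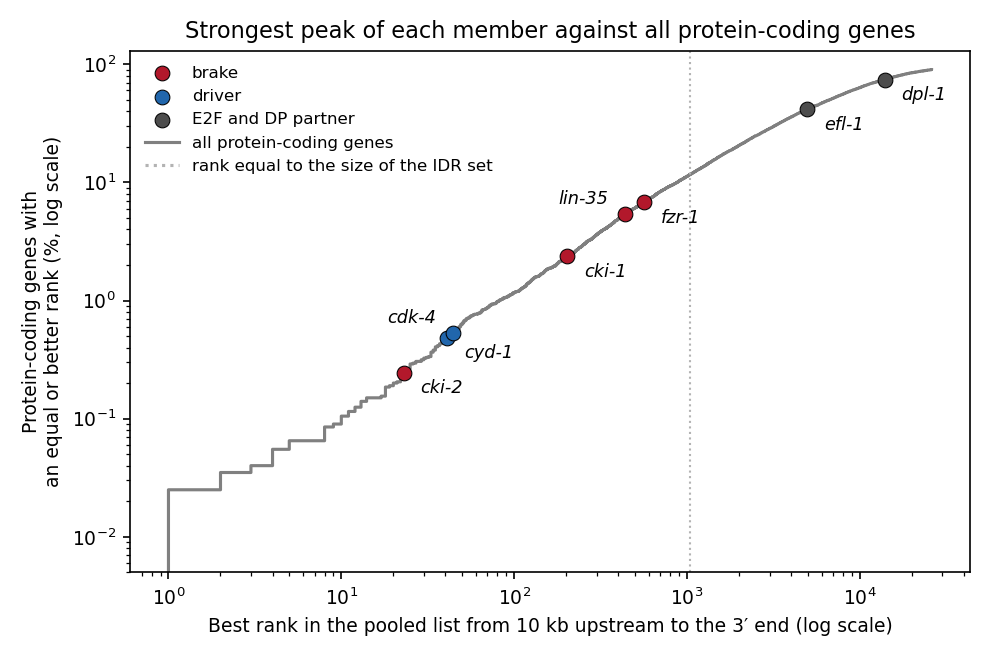
Best rank in the pooled list within each gene's window (horizontal, log scale) against the percentage of protein-coding genes with an equal or better rank (vertical, log scale); the line covers all 19973 genes and the points are the 8 members by role. cki-2, cyd-1 and cdk-4 sit under 1%, the other brakes between 2.37 and 6.83%, and efl-1 and dpl-1 at 41.5 and 74.2%.

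All 9 IDR peaks were matched by a summit within 100 bp in each replicate list, and all were also matched within 50 bp. In the whole IDR set 96.6% were matched within 100 bp in both. Of the 9 peaks, 8 ranked among the 1042 strongest of both replicates, the exception being the cki-2 peak 2970 bp upstream. Of the 1007 matched peaks of the set 68.6% did. The larger rank divided by the smaller had a median of 1.40 over the 9 peaks and 1.55 over the 1007, and it reached 5.28 at the exception. The genes were chosen on IDR ranks, and the 9 peaks had a median rank of 203 of 1042. Neither comparison thus shows that replicates agreed better at the members than at peaks of like rank. The IDR set was made from these replicate lists and its peaks are pooled entries, so matched summits are in part a property of how the set was made, and both replicates were called against the same control alignment.

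**Figure D4:**
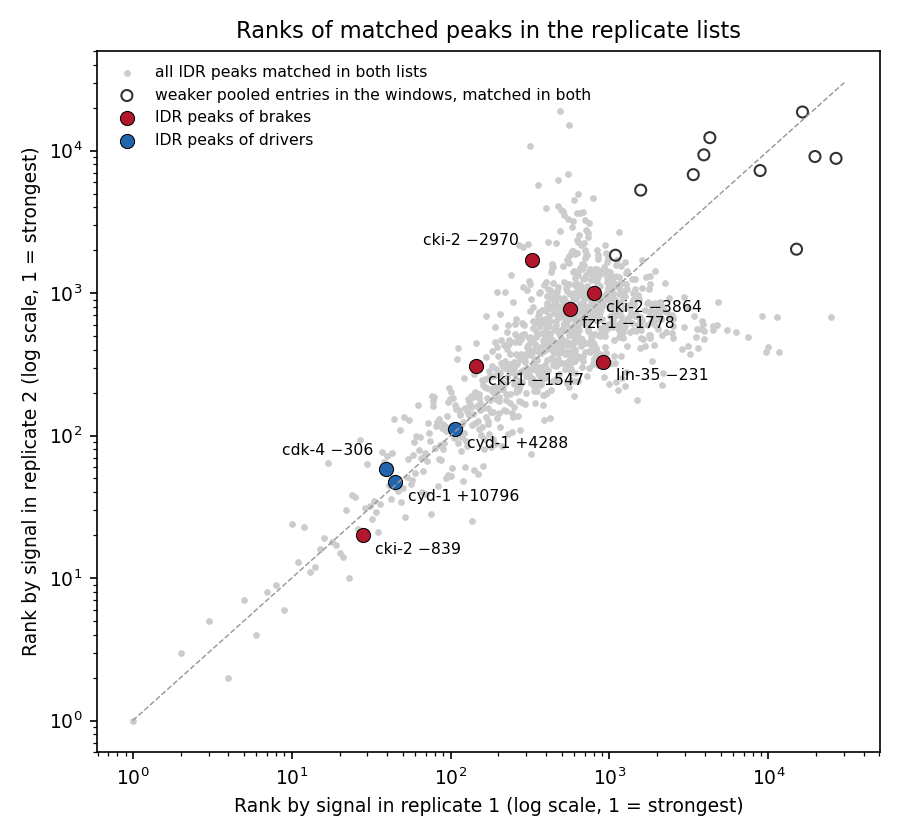
Rank by signal in replicate 1 (horizontal) and replicate 2 (vertical), both on log scales with 1 the strongest, for the 9 IDR peaks of brakes (red) and drivers (blue), labelled by gene and distance in bp from the outermost 5′ end, for all 1007 matched IDR peaks (grey) and for 10 weaker pooled entries in the same windows (open). The driver peaks and the strongest cki-2 peak lie near the diagonal at ranks up to 111, and the cki-2 peak 2970 bp upstream lies farthest from it among the 9.

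Outside the IDR set the 8 windows held 39 pooled entries, of which 10 were matched within 100 bp in both replicates. This share, 25.6%, was close to the 25.98% of all pooled entries outside the set. Of the 39, 6 had an Atonal-type hexamer at most 50 bp from their summit (15.4%, against 9.14% of all such entries). The strongest of the 39, at rank 1086 with a signal of 89.97, lay 8536 bp upstream of cdk-4 and 32 bp upstream of pab-2, a poly(A)-binding protein gene. Replicate 1 had a summit of rank 860 at 109 bp from it and replicate 2 one of rank 930 at 21 bp. Of the 9 peaks inside the set, the one of lowest rank was the cki-2 peak of rank 821. Just beyond the windows, 3879 bp past the 3′ end of cdk-4, lay an IDR peak of signal 156 and rank 346 that is nearest to col-185.

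The other genes of the cell cycle machinery were counted from a list of 35. Within 2000 bp before or 500 bp after a 5′ end, 4 of the 35 had an IDR peak, as did 5 of the 8 members and 4.15% of all protein-coding genes. Among 14 cyclin, kinase and phosphatase genes these were cye-1 (signal 126, rank 556), which encodes cyclin E, cya-1 (signal 115, rank 667), a cyclin A gene, and cdc-25.2 (signal 132, rank 503), a CDK-activating phosphatase gene. Their peaks lay 559, 484 and 1823 bp upstream of a 5′ end. Among 9 E2F and DREAM genes, DREAM being the complex of Rb, E2F-DP and MuvB proteins, the one gene was lin-54 (signal 93.7, rank 1013, 321 bp upstream), a DNA-binding subunit. The lin-54 peak ranked 638 in replicate 1 and 4947 in replicate 2. None of 12 genes of the APC/C and SCF ubiquitin ligases had such a peak.

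With the window from 10 kb upstream to the 3′ end, 9 of the 35 genes had an IDR peak, beside 11.7% of all genes. They were 4 cyclin, kinase and phosphatase genes, 3 E2F and DREAM genes and 2 APC/C and SCF genes. Among those added, cul-1 (rank 37, 9918 bp upstream), emb-30 (rank 183, 2194 bp) and efl-3 (rank 197, 2204 bp) had stronger peaks than the 4 described above. The peaks added at lin-53 (rank 577) and cdk-7 (rank 683) were weaker. With the 521 strongest IDR peaks and the narrower window, 1 of the 35 was left. Of the 4 genes with a peak near a 5′ end, cdc-25.2 held Atonal-type hexamers within 50 bp of that summit, and cye-1, cya-1 and lin-54 held none. The window of cdc-25.2 held 4 IDR peaks, the same number as that of cki-2. The strongest of them (signal 507, rank 19) lay 4887 bp upstream of the nearest 5′ end, and the others ranked 503, 819 and 935. All 4 lie within the annotated span of cdc-25.2 (chrV:1567076-1585532, plus strand), downstream of its outermost 5′ end. Those of cki-2 lie upstream of its outermost 5′ end.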

How the data were processed

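Per the labels, ChIP-seq was done on 2 replicates. Per the deposited notes on file derivation, the authors called 1 list per replicate and 1 on both together against 1 control alignment, and derived the IDR set from those lists. The deposited columns used are the authors' signal value per peak, on a scale not stated, and their −log10 q-value, which ran from 1.92 to 2.95 in the IDR set. For the aligner, peak caller and IDR threshold, names and settings were not given in the sources used here. In replicate 2, 17 mitochondrial entries were left out.

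The labels give build ce11, whose coordinates are those of WBcel235. Genes came from Ensembl release 115. Summits (peak start plus offset) were placed in each gene's window, ranked by signal among nuclear peaks, and matched within 100 bp between lists. Protein-coding 5′ ends were used for the narrower gene window. Hexamers were searched on both strands. No test was run. The named genes are the 8 members, the listed pathway genes with an IDR peak in the narrower or the 10 kb window, and nearest neighbours. The members, lists and alternatives were chosen with earlier results of these data known. Window placement and matching were tested on simulated data. Python 3.11.15, numpy 2.4.6, pandas 2.3.3 and matplotlib 3.10.9 were used.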

Additional observations from a re-analysis of the deposited data

How the results depend on the processing

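The count of members with an IDR peak, 6, was 6 with 5 kb of upstream reach, 6 with the window stopped at the nearest coding gene, 5 with the narrower window (2000 bp before and 500 bp after a 5′ end), 5 with the 521 strongest IDR peaks and 4 where the nearest coding 5′ end had to be the member's. The 9 distinct peaks became 5 with the narrower window and 5 with the nearest 5′ end. The 3 peaks at a member promoter (cki-2, lin-35 and cdk-4) became 5 with a promoter of 2000 bp upstream to 500 bp downstream. The shares of all IDR peaks at promoters and in introns are not given here. The placement of the 9 peaks is therefore not shown to differ from that of the set. The 4 pathway genes became 9 with the 10 kb window and 1 with the 521 strongest peaks. These follow from the windows and the number of peaks used. With the 1042 strongest peaks of 1 replicate in place of the IDR set, 6 members had a peak without either replicate, the windows held 10 distinct peaks without replicate 1 and 10 without replicate 2, and the pathway count ranged from 3 to 5. The replicate 1 list added a cdk-4 entry of rank 860. The replicate 2 list added a cdk-4 entry of rank 930 and a cki-1 entry of rank 625, and lost the cki-2 peak that ranked 1717. Matching within 50 or 250 bp, or by overlap, left all 9 peaks matched, and hexamer windows of 25 and 100 bp gave 4 and 7 peaks in place of 6. No paired analysis was possible because there is 1 group. Depth is unknown, so a missing peak at efl-1 or dpl-1 does not show absence of binding.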
